A study of Homo sapiens with 12 samples.

Results

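The 10 genes described here belong to the BCL2 family, which decides whether the outer membrane of the mitochondrion is opened during apoptosis. They were taken by symbol from a fixed list, made with earlier results of these data known but with no measured value in its rule, and all 10 were found among the 58278 genes listed. Of them, 4 encode anti-apoptotic proteins (BCL2, BCL2L1, MCL1 and BCL2A1) and 6 pro-apoptotic ones, namely the effectors BAX and BAK1 and the BH3-only proteins BID, BIK, BBC3 and PMAIP1. The cells were HK2, a human line of immortalised proximal tubular epithelium, and RNA was sequenced in 12 libraries, 6 groups with 2 biological replicates per group. Untreated cells formed the Ctrl group and cells with 5 ng/mL TNF-α over 3 h the TN group. The other 4 groups also had a short-chain fatty acid (SCFA) over 24 h. In PRTN (15 mM propionate) and BUTN (3 mM butyrate) the SCFA preceded TNF-α, and in TNPR and TNBU the same doses followed it. Thapsigargin and JQ1 appear in a shared protocol text of the labels but in no label of a single library, and the single labels were followed here. An SCFA without TNF-α, and TNF-α followed by the same time without an SCFA, were not analysed here, so the SCFA and the time in culture after TNF-α cannot be told apart in TNPR and TNBU. HK2 is 1 line that was immortalised with papillomavirus genes whose products act on the p53 and retinoblastoma proteins, and p53 is a known activator of BBC3, PMAIP1 and BAX.

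In a healthy cell the anti-apoptotic proteins hold BAX and BAK1 in check. BH3-only proteins respond to damage or to signals from the cell surface, and they bind the anti-apoptotic proteins or activate the effectors directly. Active BAX and BAK1 form pores, cytochrome c leaves the mitochondrion, and caspases are switched on. The TNF receptor meets this pathway at BID, which caspase-8 cuts into its active form, while NF-κB downstream of the same receptor raises transcription of survival genes such as BCL2A1. Transcript levels do not show cleavage, binding or turnover of these proteins, and no protein was measured here.

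Values are given as CPM, the count relative to library size after TMM scaling, and a call required more than a 1.5-fold change together with a limma-voom adjusted p under 0.05 across 24342 genes. The expected counts summed to 27269986 to 33851130 per library, so that 3 counts correspond to 0.0886 to 0.11 CPM. Replicates differed most in TNBU and TNPR, with a mean chi-square per gene of 18.1 and 15.1, against 3.17 to 6.6 in the other groups. Of 12 proximal tubule markers 6 reached 1 CPM in a library (CUBN, AQP1, GGT1, ANPEP, SLC5A2 and PAX8), and the transporter SLC22A6 stayed under 1 count in every library. These markers summed to 576 to 627 CPM in Ctrl and TN and to 217 to 251 CPM in the SCFA groups. All 5 epithelial markers reached 1 CPM, and their sum was 1116 to 1215 CPM in Ctrl and TN against 1729 to 2318 CPM in the SCFA groups. Of 4 endothelial markers 3 reached 1 CPM, with sums of 0.143 to 0.287 CPM in Ctrl and TN and of 2.21 to 3.64 CPM in the SCFA groups. Of 4 fibroblast markers 3 reached it, with sums of 10.4 to 13.1 CPM and 37.0 to 67.2 CPM. Of 6 leukocyte markers 3 reached it (CD14, CD68 and CSF1R), with sums of 30.4 to 36.7 CPM in Ctrl and TN, 27.2 to 36.1 CPM with propionate and 41.2 to 52.9 CPM with butyrate. The tubule, epithelial, endothelial and fibroblast sums differed between the SCFA groups and the others without overlap, as several members below did, and their part in those results was not tested.

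Per kilobase of exon, MCL1 had the highest level of the 10 members and BCL2A1 the lowest. MCL1, a short-lived survival protein, lay between 58.5 and 79.0 CPM per kb over the 6 group means. BAK1 followed with 40.3 to 51.8 CPM per kb and BCL2L1, which encodes BCL-XL, with 36.0 to 45.1 CPM per kb, and these ranges overlapped. PMAIP1 covered 14.7 to 35.7 CPM per kb, BAX 14.0 to 20.6, BIK 6.07 to 23.8 and BID 6.32 to 20.3. BBC3 stayed at 2.88 to 4.54 CPM per kb, BCL2 at 1.74 to 3.37 and BCL2A1 at 0.0183 to 1.67. The order among the middle members changed between groups: BID lay above BIK in Ctrl and TN and below it in each SCFA group.

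**Figure D1:**
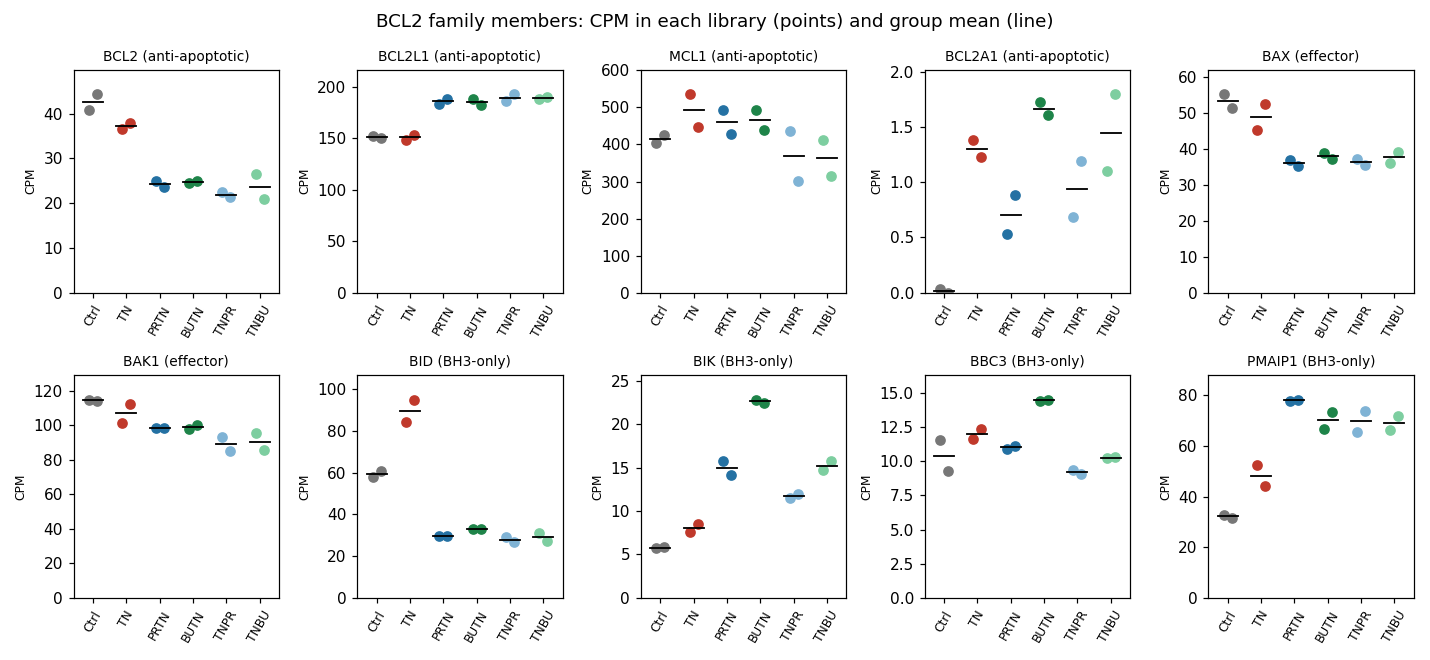
CPM of the 10 members (vertical axes, from 0) in each of the 12 libraries, by group (horizontal axes). Points are libraries and lines are means of 2. BID is highest in both TN libraries, BIK in both BUTN libraries, and BCL2A1 is near 0 only in Ctrl.

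TNF-α alone was compared with Ctrl to see how the members stood after 3 h of the cytokine. The anti-apoptotic BCL2A1 and the pro-apoptotic BID rose, 2 of 10 members, where 0.764% of all genes tested were called up. None of the 10 was called down by limma-voom, edgeR or DESeq2, 0 had an unadjusted p under 0.05 in that direction, and 0.534% of all genes were called down. By adjusted p alone 3 of 10 members passed, against 3.51% of all genes, the addition being PMAIP1.

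BCL2A1, an NF-κB target that binds BH3-only proteins, is listed as ENSG00000140379.7 at chr15:79960892-79971196 on the minus strand of GRCh38. It had 1.06 and 0 counts in the Ctrl libraries and 37.1 and 34.3 in the TN libraries, or 1.38 and 1.23 CPM in TN. The groups did not overlap, though all of these levels are low. With 1 count in Ctrl, the ratio of TN to Ctrl was 74.0 with an exact 95% interval of 12.9 to 2963, which covers counting error only. The fitted log2 change was 5.41 (SE 0.88, limma-voom adjusted p = 0.00497) and depends on the count added to 0. Under the literal geometric mean filter, which drops a gene with a count of 0 in any library, BCL2A1 was not tested. Without Ctrl replicate 2 the log2 change was 4.62 and was not called. That fit leaves Ctrl with a single library, so the part of that library and of lost replication cannot be told apart.

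The promoter of BCL2A1 is shown because this gene had the widest range of the 10 and its window held no annotated exon of the gene. These are the 250 bases before its start in RefSeq (GRCh38.p14, chr15:79971197-79971446, minus strand, 38.8% G and C). Capitals mark the match to TATAAA, searched on both strands, which starts 70 bases before the gene.
BCL2A1: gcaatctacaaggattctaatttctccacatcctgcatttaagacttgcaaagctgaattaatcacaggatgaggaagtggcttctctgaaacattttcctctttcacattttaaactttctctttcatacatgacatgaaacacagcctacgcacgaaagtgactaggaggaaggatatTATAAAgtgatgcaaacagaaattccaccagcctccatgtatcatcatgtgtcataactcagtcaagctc
A TATA box match of this kind was present in 10.7% of 35116 promoters of this length. No window among the 8 members with an entry in the table held a match to the NF-κB consensus, which 5.21% of all promoters held. BIK and MCL1 had no entry. Windows were set by the RefSeq start, and only those of BCL2A1 and PMAIP1 lay wholly outside the gene positions given here, which come from GENCODE. A missing match says only that these letters are not in these windows.

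BID (ENSG00000015475.18, chr22:17734138-17774770, minus strand) links death receptors to the mitochondrion. It stood at 58.2 and 61.0 CPM in Ctrl and at 84.5 and 95 CPM in TN. Both TN libraries were above both Ctrl libraries, and the log2 change was 0.59 (SE 0.08, limma-voom adjusted p = 0.00113), a fold of 1.51 that lies just past the threshold. Without Ctrl replicate 1 the log2 change was 0.56 (adjusted p = 0.0262 by limma-voom) and without TN replicate 2 it was 0.51 (adjusted p = 0.0187 by limma-voom), both under the fold threshold.

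PMAIP1 (ENSG00000141682.11, chr18:59899996-59904305, plus strand) encodes NOXA, a BH3-only protein that binds mainly MCL1. It had 32.8 and 31.6 CPM in Ctrl and 52.4 and 44.1 CPM in TN, without overlap. The log2 change of 0.58 (SE 0.10, limma-voom adjusted p = 0.00632) was a fold of 1.49, just inside the threshold. PMAIP1 was called at 0.59 by DESeq2 (adjusted p = 2.78e-06), and at 0.59 by limma-voom under 3 alternatives. These were relative log expression scaling, the literal geometric mean filter and a fit of only the groups compared. The other tests, scalings and filters left it uncalled. The log2 change also moved with single libraries. Without TN replicate 2 it was 0.70 (adjusted p = 0.00916 by limma-voom), and without any 1 of the 8 SCFA libraries it was 0.59 (adjusted p from 0.00424 to 0.0133), and it was then called. BIK had 5.70 and 5.84 CPM in Ctrl and 7.56 and 8.47 CPM in TN, with a log2 difference of 0.47 and an adjusted p of 0.0619 by limma-voom.

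The other 6 members had log2 differences between -0.19 (BCL2) and 0.24 (MCL1), with limma-voom adjusted p values from 0.323 to 0.988. The direction of BCL2L1, at -0.0043, changed sign under other scalings. The effectors BAX and BAK1 differed by -0.13 and -0.10 on the log2 scale, with 95% intervals from -0.31 to 0.04 and from -0.26 to 0.06. These intervals leave out a 1.5-fold change in either direction.

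Each SCFA group was then compared with TN, to ask how the levels of these genes stood with propionate or butyrate besides TNF-α. Without an SCFA-only group, a changed response to TNF-α and an SCFA effect apart from TNF-α cannot be told apart. The same 2 TN libraries enter all 4 comparisons. BID and BCL2 fell in all 4 groups, BIK rose in 3 and PMAIP1 in 1, where scaling by library size alone lost the BCL2 call in PRTN, BUTN and TNBU. In PRTN 2 members were called up, against 23.9% of all genes, and 2 down, against 16.7%. In BUTN 1 was called up, against 23.1%, and 2 down, against 14.8%. In TNPR 0 were called up, against 24.9%, and 2 down, against 16.9%, whereas in TNBU 1 was called up, against 25.0%, and 2 down, against 16.5%. The share of members called down was close to that of all genes, and the share called up was close to it or below. For the 0 called up in TNPR, edgeR and DESeq2 also called 0, and 3 had an unadjusted p under 0.05 by limma-voom. By adjusted p alone 6, 7, 9 and 8 members passed in PRTN, BUTN, TNPR and TNBU, where 56.4%, 55.1%, 57.7% and 57.4% of all genes did, and 2, 4, 7 and 5 of these differences were within 1.5-fold.

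**Figure D2:**
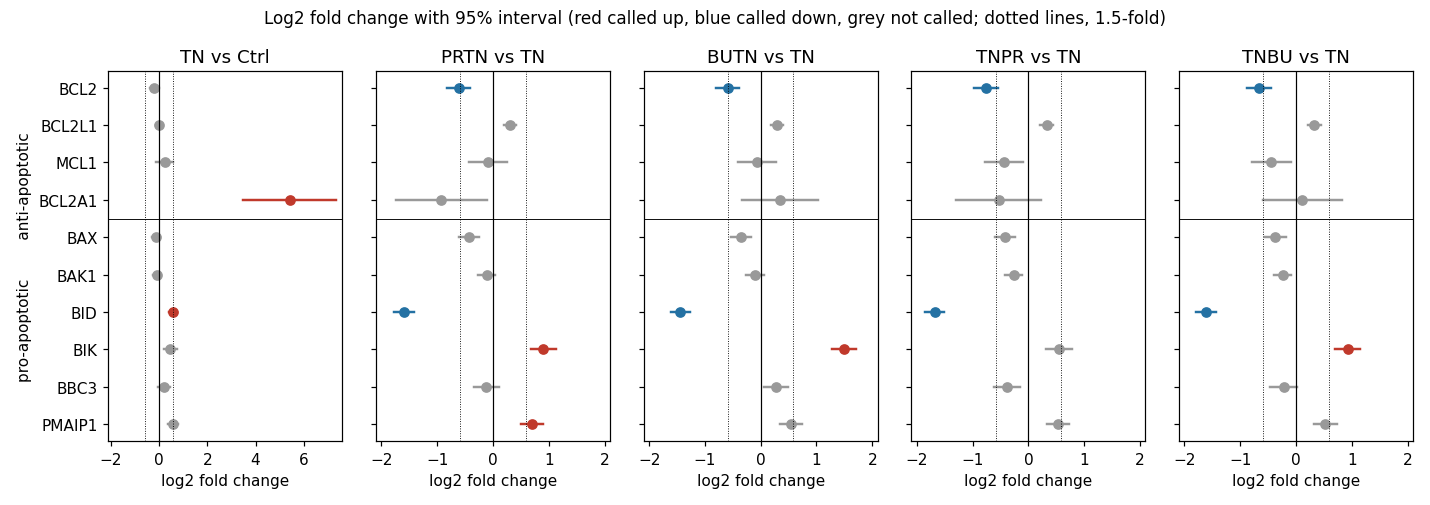
Log2 fold change (horizontal axes) of each member (vertical axis, anti-apoptotic above the line) in TN vs Ctrl and in each SCFA group vs TN, with 95% intervals from limma-voom. The axis of TN vs Ctrl is wider. BID and BCL2 lie left of the lower 1.5-fold line in all 4 SCFA groups.

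BID had the largest fall of the 10 in each of the 4 groups. From 84.5 and 95 CPM in TN it went to 29.5 and 29.6 CPM with propionate before TNF-α (PRTN) and to 29.1 and 26.7 CPM with propionate after it (TNPR). With butyrate it was at 32.9 and 33.1 CPM in BUTN, then 31.3 and 27.5 CPM in TNBU. Every SCFA library lay below both TN libraries and also below both Ctrl libraries. The log2 change from TN was -1.60 in PRTN (SE 0.08, limma-voom adjusted p = 8.90e-09), -1.44 in BUTN (SE 0.08, adjusted p = 2.45e-08), -1.68 in TNPR (SE 0.08, adjusted p = 6.01e-09) and -1.61 in TNBU (SE 0.08, adjusted p = 1.05e-08). In RNA from a whole culture, fewer cells that express a gene and less RNA per cell cannot be told apart.

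BCL2 (ENSG00000171791.12, chr18:63123346-63320128, minus strand), the founding survival gene of the family, had 40.8 and 44.3 CPM in Ctrl and 36.5 and 38.0 CPM in TN. With propionate it was at 25.0 and 23.5 CPM (PRTN) and 22.4 and 21.4 CPM (TNPR), with butyrate at 24.5 and 24.9 CPM (BUTN) and 26.5 and 20.9 CPM (TNBU). All 8 SCFA libraries lay below the 4 others. The log2 change from TN was -0.62 and -0.76 with propionate (PRTN, TNPR) and -0.59 and -0.66 with butyrate (BUTN, TNBU; SE 0.10 in each, limma-voom adjusted p from 2.31e-05 to 0.000188). In BUTN the fold of 1.51 was at the threshold, and with relative log expression scaling, DESeq2 or the literal geometric mean filter the log2 change of -0.58 was within 1.5-fold. With library size alone the values in PRTN, BUTN and TNBU were -0.46, -0.44 and -0.47, all within 1.5-fold. Without TNBU replicate 2 the log2 change in TNBU was -0.52 (limma-voom adjusted p = 0.000341), also within 1.5-fold.

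The other anti-apoptotic members were not called against TN. BCL2L1 (ENSG00000171552.12, chr20:31664452-31723989, minus strand) had 149 and 153 CPM in TN and 182 to 193 CPM in the 8 SCFA libraries, with no overlap. Its log2 differences were 0.30, 0.29, 0.33 and 0.33 in PRTN, BUTN, TNPR and TNBU (SE 0.05, limma-voom adjusted p from 0.000136 to 0.000370), all within 1.5-fold. MCL1 (ENSG00000143384.12, chr1:150560895-150579738, minus strand) had the widest scatter between replicates of the highly expressed members.

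MCL1 stood at 535 and 449 CPM in TN. With the SCFA first it had 494 and 429 CPM (PRTN) and 494 and 440 CPM (BUTN), with TNF-α first 436 and 300 CPM (TNPR) and 413 and 315 CPM (TNBU). Given before TNF-α, neither SCFA set MCL1 apart from TN, with overlapping libraries and log2 differences of -0.09 and -0.07 that took the other sign when scaled by library size alone. Given after it, the log2 differences were -0.44 in TNPR and in TNBU (SE 0.16, limma-voom adjusted p = 0.0335 and 0.0321), within 1.5-fold. Leaving out 1 library turned these into calls, at -0.75 in TNPR without TNPR replicate 1 (limma-voom adjusted p = 0.00172), at -0.67 in TNBU without TNBU replicate 1 (adjusted p = 0.00682), and at -0.59 in each without TN replicate 2 (adjusted p = 0.0275 and 0.0293).

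BCL2A1 stayed above Ctrl in every SCFA library. Its counts were 18.3 and 29.1 (PRTN) and 23.2 and 37.4 (TNPR) with propionate, and 55.1 and 55.7 (BUTN) and 31.4 and 54.1 (TNBU) with butyrate. Against TN the log2 difference was -0.93 in PRTN, with an adjusted p of 0.0501 by limma-voom, and it was called at -0.96 with the filter of edgeR (adjusted p = 0.0413) at -1.32 without PRTN replicate 2 (adjusted p = 0.0434), and at -0.96 without any 1 of the TNPR and TNBU libraries (adjusted p from 0.0316 to 0.0328). In BUTN, TNPR and TNBU it was 0.35, -0.53 and 0.11, with limma-voom adjusted p from 0.220 to 0.791, and without TNBU replicate 2 the value in TNBU was -0.27.

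Among the BH3-only genes BIK (ENSG00000100290.2, chr22:43110750-43129712, plus strand), whose product sits in the endoplasmic reticulum, had the largest rise. It was at 15.8 and 14.1 CPM (PRTN) and 11.5 and 11.9 CPM (TNPR) with propionate, and at 22.8 and 22.5 CPM (BUTN) and 14.7 and 15.7 CPM (TNBU) with butyrate, all above the TN libraries. In order of the group means it ran from Ctrl and TN through TNPR to PRTN, TNBU and BUTN, where only PRTN and TNBU overlapped. The log2 change from TN was 0.90 in PRTN (SE 0.10, limma-voom adjusted p = 9.27e-06), 1.5 in BUTN (SE 0.10, adjusted p = 1.03e-07) and 0.92 in TNBU (SE 0.10, adjusted p = 8.36e-06). In TNPR it was 0.54 (SE 0.11, adjusted p = 0.000789 by limma-voom), within 1.5-fold, and without TN replicate 2 it was 0.60 (adjusted p = 0.00394) and was called.

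PMAIP1 was at 77.9 and 78.3 CPM (PRTN) and 65.5 and 73.9 CPM (TNPR) with propionate, and at 66.9 and 73.3 CPM (BUTN) and 66.5 and 72.1 CPM (TNBU) with butyrate, above both TN libraries throughout. It rose from TN in PRTN by a log2 change of 0.70 (SE 0.09, limma-voom adjusted p = 2.47e-05). In BUTN, TNPR and TNBU the log2 differences were 0.54, 0.53 and 0.53 (SE 0.09, adjusted p from 0.000241 to 0.000301), within 1.5-fold. The call turned on single TN libraries. Without TN replicate 1 all 4 groups were called, with 0.64, 0.63 and 0.63 in those 3. Without BUTN replicate 1 the value in BUTN was 0.59 and was called, and without TN replicate 2 the value in PRTN was 0.55 (adjusted p = 0.000824 by limma-voom) and was lost. With library size as the only scaling, which moved the median of all genes in these 4 contrasts from between 0.08 and 0.12 to between 0.23 and 0.29, the 3 values were 0.70, 0.71 and 0.72 and were called.

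The promoter of PMAIP1 is shown because PMAIP1 had the largest rise over Ctrl among the BH3-only genes with an entry in the table. Its window held no annotated exon of the gene. These are the 250 bases before its start in RefSeq (GRCh38.p14, chr18:59899746-59899995, plus strand, 72.8% G and C). Capitals mark the 4 matches to the GC box, GGGCGG on either strand, which start 146, 106, 94 and 82 bases before the gene.
PMAIP1: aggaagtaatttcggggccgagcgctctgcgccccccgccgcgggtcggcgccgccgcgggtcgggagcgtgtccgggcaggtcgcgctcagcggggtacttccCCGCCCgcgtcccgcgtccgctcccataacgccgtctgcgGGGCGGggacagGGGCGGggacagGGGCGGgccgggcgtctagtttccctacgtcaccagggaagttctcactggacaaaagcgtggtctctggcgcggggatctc
At least 1 GC box was present in the windows of 4 of the 8 members searched (BAX, BAK1, BID and PMAIP1) and in 42.6% of 35116 promoters of this length. The window of BID lay wholly within the gene as placed by GENCODE, and those of BAX and BAK1 reached into theirs. BID, which fell where PMAIP1 did not, also held 4. A match to the p53 half-site was found in BAK1 only, against 5.57% of all promoters, and none was found in PMAIP1 or BBC3. These matches describe letters and not bound sites.

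BBC3 (ENSG00000105327.17, chr19:47220822-47232766, minus strand) encodes PUMA, which binds every anti-apoptotic member. It was not called in any SCFA group against TN, where it had 11.6 and 12.4 CPM. It stood at 14.4 and 14.5 CPM in BUTN, above TN, and below TN in the other 3 groups, at 10.9 and 11.1 CPM in PRTN, 9.32 and 9.05 in TNPR and 10.2 and 10.3 in TNBU. The log2 differences were 0.27 in BUTN (SE 0.10, limma-voom adjusted p = 0.0364), -0.12 in PRTN (SE 0.10, adjusted p = 0.335), which took the other sign when scaled by library size alone, -0.38 in TNPR (SE 0.11, adjusted p = 0.00856) and -0.22 in TNBU (SE 0.11, adjusted p = 0.0941).

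The effectors were not called either. BAX (ENSG00000087088.19, chr19:48954815-48961798, plus strand) had 45.2 and 52.5 CPM in TN and 35.3 to 39.3 CPM in the 8 SCFA libraries, with no overlap. Its log2 differences from TN were -0.43, -0.36, -0.42 and -0.37 in PRTN, BUTN, TNPR and TNBU (SE 0.08, limma-voom adjusted p from 0.000624 to 0.00256). BAK1 (ENSG00000030110.12, chr6:33572547-33580293, minus strand) had 102 and 112 CPM in TN, with log2 differences of -0.11 and -0.11 in PRTN and BUTN, which took the other sign when scaled by library size alone. In TNPR and TNBU they were -0.26 and -0.24 (SE 0.07, limma-voom adjusted p = 0.00756 and 0.0125).

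Against the untreated cells the 4 SCFA groups had the same count of calls. In each of them BCL2A1, BIK and PMAIP1 were called up, 3 of 10 members, where 22.6%, 22.0%, 23.6% and 23.6% of all genes were in PRTN, BUTN, TNPR and TNBU. BID and BCL2 were called down, 2 of 10, where 16.9%, 14.9%, 16.8% and 16.5% of all genes were. These 4 comparisons share the Ctrl libraries. PMAIP1 rose by log2 changes of 1.28, 1.12, 1.11 and 1.10 and BIK by 1.37, 1.97, 1.01 and 1.40 (limma-voom adjusted p at most 8.26e-06). BID changed by -1.01, -0.85, -1.09 and -1.02 and BCL2 by -0.81, -0.78, -0.95 and -0.85 (limma-voom adjusted p at most 1.64e-05). BID thus lay above Ctrl with TNF-α alone and below it in the groups with TNF-α and an SCFA.

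The ratio of counts of BCL2A1 to the 1 count in Ctrl was 39.8 in PRTN (exact 95% interval 6.79 to 1603), 95.1 in BUTN (16.7 to 3788), 53.5 in TNPR (9.24 to 2147) and 82.6 in TNBU (14.4 to 3300). These intervals overlap widely. BAX was not called, with log2 differences from Ctrl of -0.56, -0.49, -0.55 and -0.50 (limma-voom adjusted p at most 0.000243). Its values in PRTN and TNPR lay close to the threshold, and without Ctrl replicate 2 they were -0.61 and -0.60 and were called. The value in PRTN was also called without either TN library (-0.59 each) or PRTN replicate 1 (-0.62), and that in TNPR without any 1 of the PRTN, BUTN and TNBU libraries (-0.59 each) or TNPR replicate 1 (-0.61). BBC3 in BUTN was at 0.48, and at 0.64 without Ctrl replicate 1, where it was called.

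Propionate and butyrate, of which butyrate has the longer carbon chain, were compared at each time. Their doses differed, 15 mM against 3 mM, so that compound and dose cannot be told apart. Given before TNF-α, 1 of 10 members was called, against 0.168% of all genes. BIK was lower with propionate, at 15.8 and 14.1 CPM against 22.8 and 22.5 CPM. The log2 difference was -0.60 (SE 0.08, limma-voom adjusted p = 0.0159), a fold of 1.51. Without PRTN replicate 1 or 2, or without BUTN replicate 1 or 2, the log2 difference was -0.69, -0.53, -0.60 and -0.63 and its adjusted p by limma-voom 0.112, 0.134, 0.216 and 0.126. Each of these fits leaves 1 arm with a single library, which is assumed to vary like the other groups. The summed leukocyte markers were also lower with propionate than with butyrate at each time, without overlap, and their part in this result was not tested.

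The other members were not called between these groups. BCL2A1 was at 0.528 and 0.884 CPM in PRTN and at 1.72 and 1.61 CPM in BUTN, a log2 difference of -1.27 with an adjusted p of 0.123 by limma-voom, and 0.0336 in a fit of only the groups compared. BBC3 was at 10.9 and 11.1 CPM in PRTN and 14.4 and 14.5 CPM in BUTN, a log2 difference of -0.39 with an adjusted p of 0.0925 by limma-voom. The 95% intervals of BCL2 (-0.24 to 0.19), BCL2L1 (-0.10 to 0.12), BAX (-0.26 to 0.10), BAK1 (-0.16 to 0.15), BID (-0.35 to 0.03), PMAIP1 (-0.03 to 0.34) and MCL1 (-0.36 to 0.32) left out a 1.5-fold difference.

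Given after TNF-α, 0 of 10 members were called between propionate and butyrate by limma-voom, edgeR or DESeq2 (which gave no adjusted p for BCL2A1), against 0.00822% of all genes by limma-voom, and 1 had an unadjusted p under 0.05. BIK was at 11.5 and 11.9 CPM in TNPR and at 14.7 and 15.7 CPM in TNBU, without overlap. Its log2 difference was -0.38 (95% interval -0.58 to -0.18) with an adjusted p of 0.337 by limma-voom. BCL2A1 had the widest interval, from -1.39 to 0.10, at its low counts.

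The time of the SCFA was compared within each compound. The time since TNF-α differed as well, so it cannot be told apart from the order of treatment. For propionate 0 of 10 members were called between TNPR and PRTN, against 0.160% of all genes, and for butyrate 0 of 10 between TNBU and BUTN, against 0.267%. Those counts were also 0 with edgeR and, over the 9 members other than BCL2A1, DESeq2, and 3 members had an unadjusted p under 0.05 by limma-voom in each. By adjusted p alone 2 members passed for butyrate, against 0.781% of all genes. BIK had 22.8 and 22.5 CPM when butyrate came before TNF-α and 14.7 and 15.7 CPM when it came after. The log2 difference of -0.57 (SE 0.08, limma-voom adjusted p = 0.0104) was a fold of 1.49, and it was called at -0.59 without PRTN replicate 2 and at -0.63 without TNBU replicate 2 (adjusted p = 0.0175 and 0.0310). BBC3 went from 14.4 and 14.5 CPM to 10.2 and 10.3 CPM, a log2 difference of -0.49 (SE 0.10, limma-voom adjusted p = 0.0484). For propionate the same genes differed by -0.36 and -0.26, with adjusted p of 0.174 and 0.385 by limma-voom. The difference of these differences was 0.22 for BIK and 0.23 for BBC3 with an adjusted p of 1.00 for each by limma-voom, and 0 of 10 members and 0.0% of all genes were called for it. With edgeR and DESeq2 the count was 0 as well, as was the number of members with an unadjusted p under 0.05.

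The balance of pro- and anti-apoptotic transcripts was summarised as the median log2(CPM + 0.5) of the 6 pro-apoptotic members minus that of the 4 anti-apoptotic ones. It was -0.95 ± 0.09 in Ctrl (SD, n = 2), -0.63 ± 0.05 in TN, -1.03 ± 0.0041 (PRTN) and -0.93 ± 0.0085 (BUTN) with the SCFA first, and -1.01 ± 0.06 (TNPR) and -1.0 ± 0.09 (TNBU) with TNF-α first. By this measure TN lay 0.32 above Ctrl, and the SCFA groups lay 0.40, 0.30, 0.38 and 0.37 below TN in PRTN, BUTN, TNPR and TNBU. The direction depended on how members were summed. With means in place of medians TN was at -0.20 against Ctrl, and PRTN, BUTN, TNPR and TNBU were at 0.13, 0.08, 0.02 and 0.0013 against TN. Without BIK and BCL2A1 the medians gave -0.02 for TN against Ctrl, and -0.83, -0.75, -0.85 and -0.80 for the SCFA groups against TN. No single direction of the family as a whole therefore follows from these values, and the members moved both ways within each side.

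Ratios of single pairs, chosen after the values were seen from proteins known to bind each other or to be weighed against each other, differed in direction. BAX to BCL2, both of which were lower with an SCFA, was 1.35 and 1.16 in Ctrl and 1.24 and 1.38 in TN, and with an SCFA 1.48 and 1.5 (PRTN), 1.59 and 1.5 (BUTN), 1.66 and 1.66 (TNPR), and 1.37 and 1.88 (TNBU). Only TNBU replicate 1 of the SCFA libraries fell within the range of TN. BID to BCL2L1 was 0.394 ± 0.017 in Ctrl (SD, n = 2) and 0.595 ± 0.037 in TN, against 0.148 ± 0.012 to 0.179 ± 0.0051 in the SCFA groups. PMAIP1 to MCL1 was 0.0777 ± 0.0047 in Ctrl and 0.0981 ± 0.00032 in TN, and 0.151 ± 0.022 to 0.198 ± 0.068 in the SCFA groups.

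**Figure D3:**
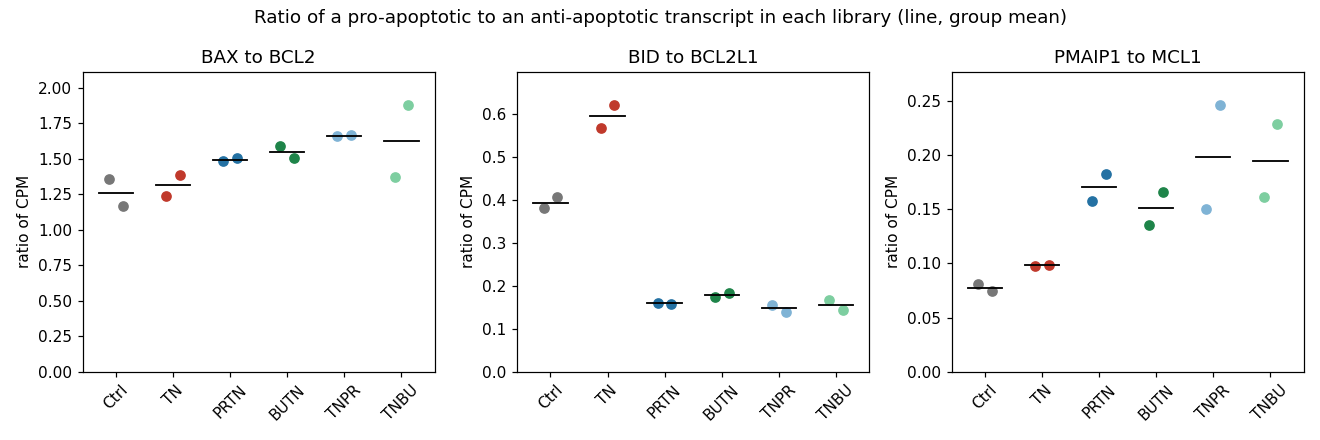
Ratio of the CPM of a pro-apoptotic to an anti-apoptotic transcript (vertical axes, from 0) in each of the 12 libraries (points) by group (horizontal axes), with the mean of 2 as a line. BID to BCL2L1 is below every Ctrl and TN library in all 8 SCFA libraries, and PMAIP1 to MCL1 is above them.

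Other genes of the pathway were followed in 3 lists. Of 13 further BCL2 family genes 12 were tested, BCL2L10 being too low. In TN vs Ctrl limma-voom called 0 up (2 with an unadjusted p under 0.05) and 1 down, and against TN 5, 3, 5 and 5 were called up and 3, 1, 3 and 1 down in PRTN, BUTN, TNPR and TNBU. Of all genes 0.764% were called up and 0.534% down in TN vs Ctrl, 23.9%, 23.1%, 24.9% and 25.0% up against TN, and 16.7%, 14.8%, 16.9% and 16.5% down, which is the background of all 3 lists. The median log2 differences of the family genes from TN were 0.07, 0.07, -0.02 and 0.04, beside 0.09, 0.08, 0.12 and 0.09 over all genes. BMF, a BH3-only gene linked to the cytoskeleton, fell in TN, from 78.7 and 67.9 CPM in Ctrl to 40.9 and 42.8 CPM. Its log2 change was -0.81 (limma-voom adjusted p = 0.00198), opposite in sign to that of BID.

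BCL2L11, which encodes the BH3-only protein BIM, had 31.1 and 30.4 CPM in TN and 46.5 to 54.7 CPM in the 8 SCFA libraries. It rose by log2 changes of 0.83, 0.76, 0.67 and 0.70 in PRTN, BUTN, TNPR and TNBU (limma-voom adjusted p at most 6.92e-06). BCL2L15, a family member of poorly known function, rose from 1.19 and 1.15 CPM in TN to 5.92 to 14.7 CPM, with log2 changes of 2.6, 3.57, 2.6 and 3.47. It was also lower in PRTN than in BUTN by a log2 difference of -0.97 (limma-voom adjusted p = 0.0266), the same direction as BIK. BCL2L12 rose by 1.06, 0.79, 1.04 and 0.94.

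The next list held 12 genes of mitochondrial release and the caspases, among them the outer membrane channels VDAC1, VDAC2 and VDAC3. Of these 12 genes 0 were called in TN vs Ctrl by limma-voom, where 3 higher and 2 lower had an unadjusted p under 0.05. Against TN 2, 2, 3 and 2 were called up and 3, 2, 3 and 2 down. The medians were 0.04, -0.04, -0.07 and -0.09 on the log2 scale, beside 0.09, 0.08, 0.12 and 0.09 over all genes. DIABLO, whose product releases caspases from their inhibitors, rose by 0.96, 0.88, 0.95 and 0.86. ENDOG, a mitochondrial nuclease, was at 5.69 and 6.87 CPM in TN and 2.57 to 3.92 CPM in the SCFA libraries, with log2 changes of -0.70, -1.09, -0.87 and -1.05 (limma-voom adjusted p at most 0.00288).

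Of 13 regulators upstream of the family 1 was called up and 0 down in TN vs Ctrl by limma-voom (0 lower at an unadjusted p under 0.05), and 2, 1, 2 and 2 up and 4, 4, 4 and 4 down against TN. Their medians from TN were -0.36, -0.39, -0.28 and -0.01 on the log2 scale, beside 0.09, 0.08, 0.12 and 0.09 over all genes. NFKB1, which encodes the p105 and p50 subunits of NF-κB, was at 73.0 and 76.2 CPM in Ctrl and at 153 and 162 CPM in TN, a log2 change of 1.08 (limma-voom adjusted p = 1.12e-05). In the SCFA libraries it was at 29.8 to 65.2 CPM, below both Ctrl libraries, with log2 changes from TN of -1.69, -1.29, -2.36 and -2.12. BCL2A1, a target of NF-κB, had log2 differences from TN of -0.93, 0.35, -0.53 and 0.11 in the same groups, the first of which was called under some alternatives, as given for BCL2A1. NFKB1 was also lower when the SCFA came after TNF-α, by -0.67 for propionate and -0.83 for butyrate (limma-voom adjusted p = 0.00784 and 0.00113). The time since TNF-α differed there too and cannot be told apart from the order of treatment.

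ATF4, a stress transcription factor that can raise PMAIP1 and BBC3, was at 351 and 337 CPM in TN and at 131 to 160 CPM in the SCFA libraries. Its log2 changes were -1.23, -1.13, -1.30 and -1.33 (limma-voom adjusted p at most 1.87e-08), opposite in sign to those of PMAIP1. BBC3 differed from TN by -0.12, 0.27, -0.38 and -0.22 in PRTN, BUTN, TNPR and TNBU, so its sign was that of ATF4 except in BUTN. A link of ATF4 to either gene was not tested. TP73, a relative of p53, had 4.22 and 7.87 counts in TN and 39.8 to 64.0 counts in the SCFA libraries, with log2 changes of 2.50, 2.70, 2.61 and 2.95 at this low level.

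**Figure D4:**
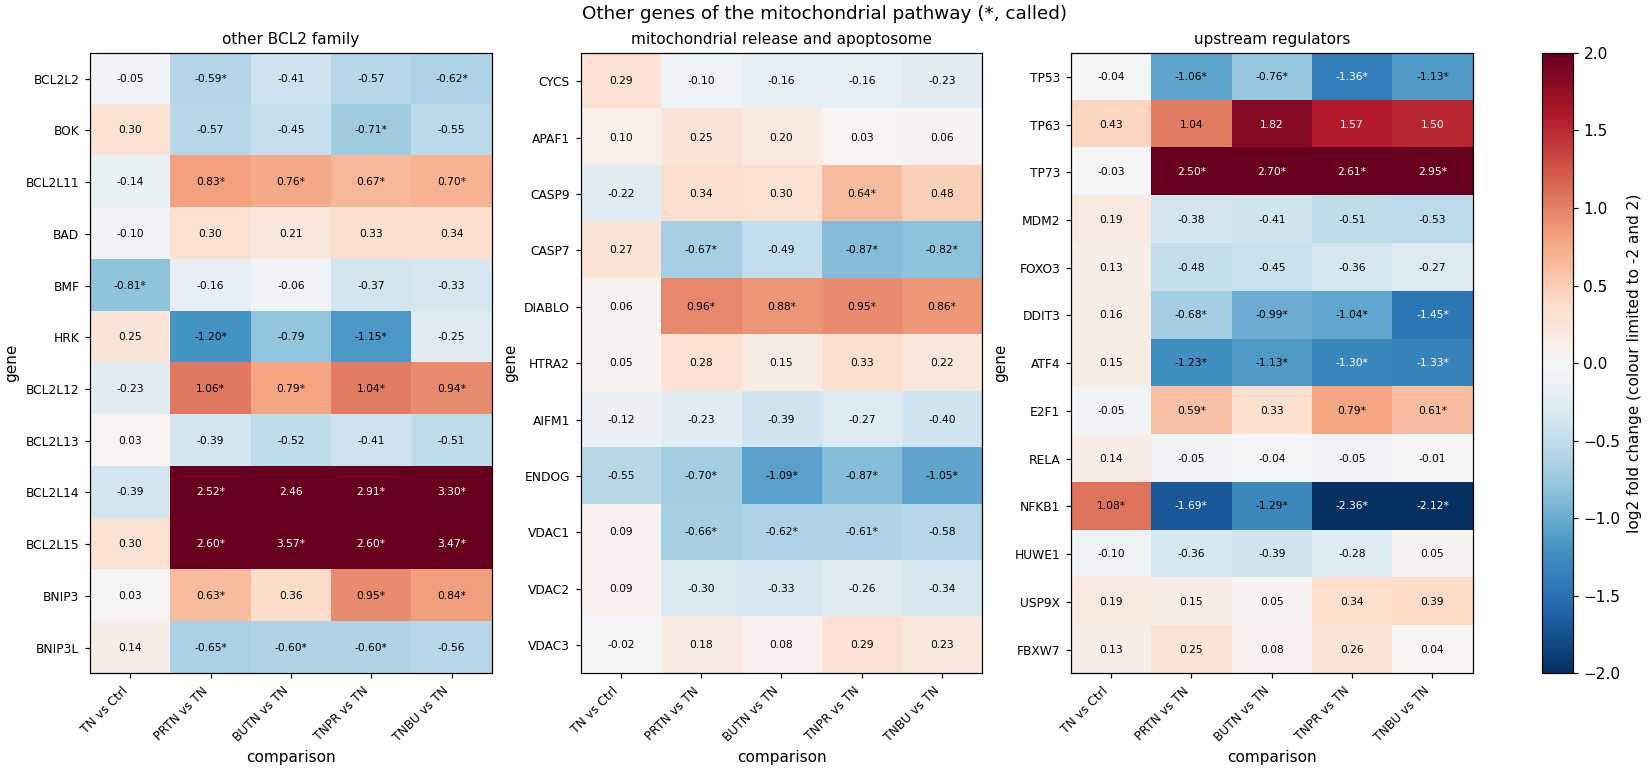
Log2 fold change (cell colour, limited to -2 and 2, and printed number) of the genes tested (rows, 1 gene left out) of the 3 pathway lists in TN vs Ctrl and in each SCFA group vs TN (columns), with an asterisk for a call by limma-voom. NFKB1 changes sign between TN vs Ctrl (1.08) and the 4 SCFA columns.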

How the data were processed

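RNA of HK2 cells was sequenced as stranded mRNA libraries on a HiSeq 2500. To obtain the deposited expected counts, the authors aligned reads to GRCh38 with STAR 2.6.1a and estimated genes of GENCODE release 26 with RSEM, after FastQC 0.11.5 (versions from the submitters' processing notes, that of RSEM not given in the sources used here). Replicates were not pooled. The strand setting is not given, so that reads of a gene and of an overlapping antisense gene may not be separated.

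Counts were not rounded. The filter took the geometric mean of count + 1, subtracted 1, and required a value of 1, which left 24342 genes and removed 33936. All 10 members passed. TMM factors (edgeR 4.0.16, 0.913 to 1.06), voom weights and a mean for each of the 6 groups over all 12 libraries were fitted with limma 3.58.1 in R 4.3.3, with Benjamini-Hochberg adjustment over all genes. Intervals of BCL2A1 ratios are exact (scipy 1.17.1). Tests were checked on simulated counts. Alternatives were the quasi-likelihood test of edgeR and DESeq2 1.42.0 on rounded counts, other scaling, filters and thresholds, fits of only the groups compared, a replicate block, and each library left out.

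Positions are those of GENCODE release 44, and exon lengths come from it. Members and lists were chosen with earlier results of these data known. All members are named, with the genes of each pathway list called in TN vs Ctrl, and the 3 with the largest mean absolute log2 change against TN among those called in all 4 SCFA groups in 1 direction. Of these, 1 gene is not reported here, though list counts and medians include it. Likeness of pattern was sought for the 3 members with the widest range of group means, among genes with at least 5 CPM.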

Additional observations from a re-analysis of the deposited data

Results flagged for a closer look

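Differences between compounds or times that passed an adjusted p under 0.05 by limma-voom were seen for BIK and BBC3. BIK was lower with propionate than with butyrate, both before TNF-α, by a log2 difference of -0.598. It was also lower with butyrate after TNF-α than before it, by -0.574. BBC3 was lower with butyrate after TNF-α than before it, by -0.494. These are contrasts of groups within 1 fit. The doses differed between the compounds, and the time since TNF-α differed between the orders of treatment. No group had more than 2 libraries, so no test for a single deviating library could be run.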

How the results depend on the processing

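Of 1541 values under alternatives, 1433 were counted as kept. A single member was kept if its direction and side of the threshold held, and the balance if it stayed within the stated spread. A count of called genes was kept if it stayed within 1.5-fold, even where the count or its members changed. With DESeq2 in TN vs Ctrl the count stayed at 2, with PMAIP1 called and BCL2A1 without an adjusted p. The literal geometric mean filter drops a gene with a count of 0 in any library, so BCL2A1 was not tested under it. The 2 members then called in TN vs Ctrl were BID and PMAIP1. Against Ctrl 2 members were then called up in each of the 4 SCFA groups. At a fold over 2 the members called were 1 in TN vs Ctrl, PRTN, TNPR and TNBU vs TN each, 3 in BUTN vs Ctrl and 0 in PRTN vs BUTN, since fewer pass the larger fold. With library size alone they were 1 in TN vs Ctrl and 4 in TNPR vs TN. In the list of mitochondrial release and the caspases, the genes called were then 1 in TN vs Ctrl and 2 in PRTN vs TN. For PRTN vs BUTN 2 were called by unadjusted p and by a fit of only the groups compared. Leaving out 1 library gave 1 to 3 called in TN vs Ctrl, 2 to 4 in TNPR vs TN, 0 to 1 in PRTN vs BUTN and 0 to 1 in TNBU vs BUTN, and the cause was not tested. The balance was -0.201, 0.135, 0.0849, 0.0249 and 0.0013 for TN vs Ctrl and for PRTN, BUTN, TNPR and TNBU vs TN as a mean, and -0.0204, -0.831, -0.748, -0.846 and -0.796 without BIK and BCL2A1. Signs of single members turned near 0. BCL2L1 in TN vs Ctrl was at 0.0057 with DESeq2, 0.0061 with relative log expression scaling, 0.0079 with the literal geometric mean, 0.010 with only the groups compared, and at -0.025 to 0.016 with a library left out. With library size alone MCL1, BAK1 and BBC3 were at 0.066, 0.041 and 0.032 in PRTN, and MCL1 and BAK1 at 0.082 and 0.047 in BUTN. With 1 library left out MCL1 ran from -0.248 to 0.0077 in PRTN and from -0.229 to 0.027 in BUTN, above 0 without TN replicate 1, and BCL2A1 from -0.27 to 0.42 in TNBU vs TN, below 0 without TNBU replicate 2. DESeq2 gave no adjusted p for BCL2A1 in TN vs Ctrl, nor between the compounds or the times, so its counts there cover the other 9 members.

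Deviations of same-numbered replicates had correlations from -0.0334 to 0.067 over 15 pairs of groups. No pairing was seen by this measure. It weights all genes tested alike, including those with low counts, so it cannot exclude a shared batch. MCL1 was higher in replicate 1 than in replicate 2 in every group except Ctrl, and the cause was not tested. The replicate block changed 1 call of a member, BCL2A1 in PRTN vs TN, which was then called at -0.91 (limma-voom adjusted p = 0.0449). With 2 libraries a group, low counts limit BCL2A1 most.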

Other observations

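The genes whose pattern over the 12 libraries was most like that of a member were sought among 11280 genes, as a description in which all points share the same 6 groups. BID was most like SLFN5, AMIGO2 and SLC22A4 (Pearson's r 0.995, 0.995 and 0.994). AMIGO2 had 320 CPM in Ctrl, 643 CPM in TN and 60.5 to 86.5 CPM in the SCFA groups as group means. BIK was most like FMN1, TES and RCAN3 (0.984, 0.979 and 0.978), and TES was highest in BUTN with 182 CPM. BCL2A1 was most like DUSP10, LAMB3 and LHX6 (0.968, 0.961 and 0.946), and LAMB3 went from 114 CPM in Ctrl to 230 CPM in TN and 200 to 244 CPM in the SCFA groups.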
